A study of Drosophila melanogaster with 4 samples.

Results

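A set of 10 genes of oocyte maturation, meiotic arrest and egg activation were followed through polysome-seq of Drosophila melanogaster ovaries enriched for germline cysts. They were chosen by name, as known regulators of these steps, with earlier results of these data known: png, plu, gnu, cort, grau, wisp, twe, mtrm, endos and gwl. All 10 were found among the 17699 gene identifiers of the count tables, and all 10 were among the 9038 genes with enough counts to be tested. Every library came from ovaries in which UAS-Dicer2;NosGAL4, a germline Gal4 driver with added Dicer-2, drives a bam RNAi and in which the heat-shock transgene hs-bam supplies bam again. Both groups therefore carry the same driver, the same knockdown and the same transgene. They also shared the heat shock, given at 37°C for 2 h, repeated after 4 h at room temperature, and carried out on 2 days, and they were dissected 3 to 5 days after eclosion. The 2 groups were input, which is lysate RNA taken with TRIzol, and polysome, which is RNA of gradient fractions taken with phenol-chloroform, with replicates 1 and 3 of each. Extraction and fraction cannot be told apart here. The cyst stages in such ovaries were not counted by the study, and somatic cells are present.

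A Drosophila oocyte enters meiosis in the germarium, pauses in prophase while it grows, resumes at maturation and halts again until ovulation activates the egg. Translation and protein turnover, rather than new transcription, drive these late steps. The Pan Gu kinase, made of the catalytic subunit Png, the ankyrin-repeat protein Plu and the activating subunit Gnu, lifts repression from maternal mRNAs such as CycB and smg when the egg is activated. Cort is an activator of the anaphase-promoting complex (APC/C) in female meiosis, and the zinc finger protein Grau turns on cort transcription. Wisp is a cytoplasmic poly(A) polymerase that lengthens the tails of maternal mRNAs. Twe is a Cdc25 phosphatase of meiosis, Mtrm holds the kinase Polo inactive in the oocyte, and Gwl phosphorylates Endos so that it blocks the phosphatase PP2A when bound to its Tws subunit.

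Gene counts totalled 10646651 and 12298615 in inputs 1 and 3 and 19452659 and 22647905 in polysomes 1 and 3, so that 1 count was worth 0.0442 to 0.0939 CPM (counts-per-million) before the libraries were scaled to each other by TMM (trimmed mean of M values), as all CPM levels given here were. Polysome 3 stood apart from the other libraries, since its log2 CPM correlated at 0.762 to 0.780 with theirs over genes, while those of the others correlated at 0.812 to 0.853. Germline and cyst markers such as vas, bam and piwi all had counts in each library. Of 9 testis genes used as a check, 8 were listed at 0 in every library and betaTub85D had counts in input 3 only. In such bulk samples fewer cells of a type and less RNA per cell cannot be told apart.

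In input, where levels between genes were compared per length as TPM (transcripts-per-million), endos was by far the highest of the 10 at 381 ± 8.74 TPM (SD, n = 2), above 96.6% of tested genes. The next group held grau at 31.7 ± 1.57 TPM, gnu at 30.7 ± 10.9 TPM and gwl at 23.5 ± 9.44 TPM. Neighbours in this group did not differ beyond the spread between the inputs, although both grau values lay above both gwl values. Lower still were wisp at 9.39 ± 1.93 TPM, twe at 8.77 ± 0.81 TPM, png at 7.43 ± 6.69 TPM and cort at 6.87 ± 2.49 TPM, which overlapped one another. At the bottom were mtrm at 2.95 ± 2.69 TPM and plu at 1.75 ± 1.80 TPM, above 12.5% and 8.45% of tested genes. The median of the 10 was 9.08 TPM, against 24.6 TPM over all tested genes. The endos mRNA alone held 72.6% and 70.0% of the counts of the 10 genes in input 1 and input 3, and 78.9% in polysome 1, but 30.2% in polysome 3.

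The comparison of polysome with input asked how much of each mRNA sedimented with several ribosomes relative to its level in lysate. No gene of the 10 passed the test over all 4 libraries. In edgeR's quasi-likelihood test 0% of the 9038 genes were called at an adjusted p under 0.05 and 423 had an unadjusted p under 0.05, and among the 10 only mtrm and plu had an unadjusted p under 0.05. By DESeq2, which called 0.454% of genes and 0.188% as higher in polysomes, 0 of the 10 were called. An unadjusted p under 0.05 by DESeq2 was seen for 3 of the 10 and for 649 of the 9038 genes. With the replicate number as a block, which called 0.52% of genes (0.376% higher), 0 of the 10 were called as well. An exact permutation of 2 libraries against 2 cannot give a two-sided p below 0.333. Fitted fold changes were above 0 for 9 of the 10 genes, against 49.8% of all tested genes, and their median log2 fold change was 1.48, against -0.0032 over all.

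This median rested on polysome 3. In 8 of the 10 genes the highest of the 4 levels was that of polysome 3, against 29.7% of all tested genes. The exceptions were endos and grau. Only endos had both polysome libraries above both inputs, which 17.2% of tested genes did, and 0 of the 10 had both below, which 18.1% did (35.3% for either side). Their median level was 19.0 (input 1), 13.0 (input 3), 8.15 (polysome 1) and 104 CPM (polysome 3).

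**Figure D1:**
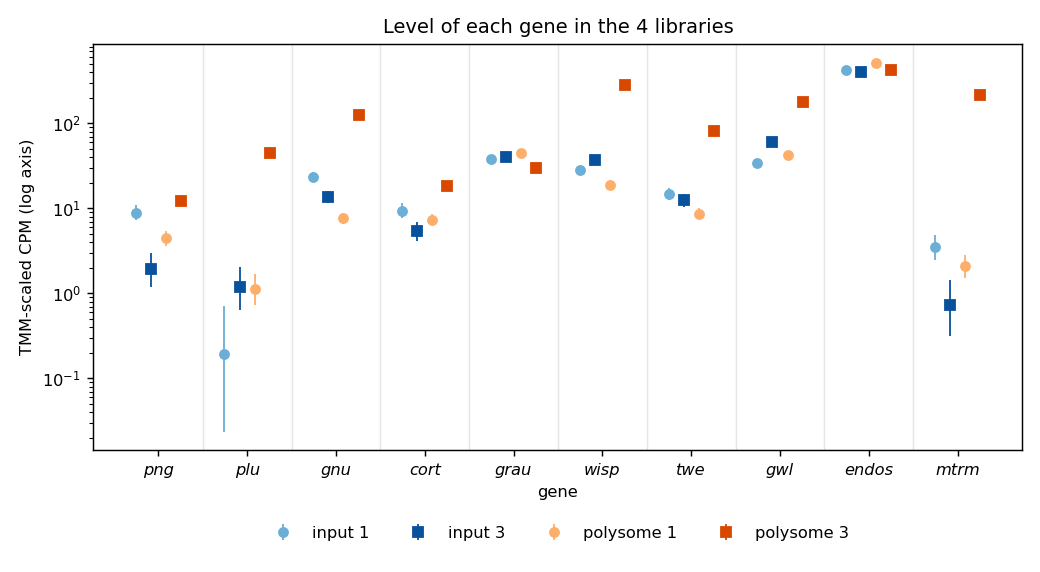
Level of each of the 10 genes in the 4 libraries, in TMM-scaled CPM on a log axis, with bars for the exact Poisson 95% interval of each count, which covers counting error only. Polysome 3 is the highest point for every gene except endos and grau, from 12.3 CPM for png to 280 CPM for wisp among the 8.

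The 3 subunits of the Pan Gu kinase differed in level and in spread. png (FBgn0000826) is a gene of 1 exon on chromosome X from 1356488 to 1357601 (dm6), and encodes the kinase itself. It was at 8.94 (input 1), 1.93 (input 3), 4.44 (polysome 1) and 12.3 CPM (polysome 3). The inputs lay 4.63-fold apart, more than counting error allows, since the 95% Poisson interval of input 1 began at 7.20 CPM and that of input 3 ended at 2.95 CPM. Its log2 fold change was 0.63 ± 1.35 (SE), the groups overlapped, and without input 3 it was -0.09.

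plu (FBgn0003114, chromosome 2R from 20262958 to 20263684, 3 exons) encodes the small ankyrin-repeat subunit. Only 2 counts were on its strand in input 1, giving 0.194 CPM with an interval of 0.0235 to 0.702 CPM. The other levels were 1.19 (input 3), 1.13 (polysome 1) and 45.3 CPM (polysome 3). Thus plu was near the detection limit in 3 libraries and 39.9-fold higher in polysome 3 than in polysome 1. The log2 fold change was 5.04 ± 1.76, with an unadjusted p of 0.0207 and an adjusted p of 0.956 by edgeR. It was 0.69 ± 5.62 without polysome 3 and 6.85 without input 3. Counted without regard to strand, plu had 41 reads in input 1 and a log2 fold change of 3.07 ± 1.46.

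gnu (FBgn0001120, chromosome 3L from 14802380 to 14803360, 2 exons) encodes the subunit that switches the kinase on. Its levels were 23.4 (input 1), 13.6 (input 3), 7.61 (polysome 1) and 126 CPM (polysome 3). Polysome 1 was therefore below both inputs and polysome 3 above both. The log2 fold change was 1.85 ± 1.06. Per length, gnu exceeded png 3.16-fold and 8.51-fold in inputs 1 and 3, and 2.07-fold and 12.4-fold in polysomes 1 and 3. The ratio of plu to png TPM was 0.0393 and 1.12 in inputs 1 and 3, and 0.462 and 6.64 in polysomes 1 and 3. Subunit mRNAs thus stood in no fixed ratio across the libraries.

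cort and grau, a target gene and its transcription factor, differed in their levels and in how steady these were. cort (FBgn0000351, chromosome 2L from 6674682 to 6676635, 6 exons) was at 9.42 (input 1), 5.42 (input 3), 7.33 (polysome 1) and 18.3 CPM (polysome 3). The groups overlapped, and the log2 fold change was 0.78 ± 0.99. It shares 99 exon bases with cup and CG34310 on the opposite strand, and 62.5% to 88.6% of strand-assigned reads at cort lay on that strand. With unstranded counts its log2 fold change was 0.82 ± 1.02. grau (FBgn0001133, chromosome 2R from 21009764 to 21011921, 5 exons) was at 38.2 (input 1), 39.8 (input 3), 44.2 (polysome 1) and 29.9 CPM (polysome 3). Of the 10 it was the only gene with its lowest level in polysome 3. Its log2 fold change was -0.07 ± 0.49.

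wisp (FBgn0260780), the poly(A) polymerase gene on chromosome X from 11893943 to 11899920, had 8 to 9 exons and the longest exon sequence of the 10, at 5320 bases. It was at 28.2 (input 1), 36.7 (input 3), 18.8 (polysome 1) and 280 CPM (polysome 3). The inputs were 1.30-fold apart, whereas the polysomes were 14.9-fold apart and lay on either side of the inputs. The log2 fold change was 2.21 ± 0.99 (unadjusted p = 0.0569, adjusted p = 0.956). Gld2, the related poly(A) polymerase known from the testis, had 53 and 55 counts in input 1 and input 3 (5.15 and 5.05 CPM) and 0 counts in both polysome libraries. A count of 0 allows up to 3 counts a library, or 0.142 CPM in polysome 1, so Gld2 was at least 36.0-fold lower in polysomes than its input mean, although its adjusted p was 0.956.

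Among the genes that act on Cdk1 and PP2A, twe and gwl were highest in polysome 3 and endos was not. twe (FBgn0002673, chromosome 2L from 16259414 to 16261877, 2 exons) was at 14.7 (input 1), 12.5 (input 3), 8.70 (polysome 1) and 80.9 CPM (polysome 3), a log2 fold change of 1.72 ± 0.93. Here too polysome 1 was below both inputs. It shares 98 exon bases with EndoGI on the opposite strand, and with unstranded counts its log2 fold change was 1.24 ± 0.87. stg, the Cdc25 gene of mitotic cycles, exceeded twe per length in every library, with a ratio of twe to stg of 0.396 and 0.147 in input 1 and 3 and 0.161 and 0.288 in polysome 1 and 3.

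gwl (FBgn0260399, chromosome 3R from 18746370 to 18750360, 5 to 6 exons) was at 34.4 (input 1), 59.9 (input 3), 41.9 (polysome 1) and 180 CPM (polysome 3). Polysome 1 lay between the inputs and polysome 3 above them, and the log2 fold change was 1.23 ± 0.68. endos (FBgn0061515, chromosome 3L from 14029579 to 14031706, 3 exons), which encodes the substrate of Gwl, was the steadiest of the 10. Its levels were 425 (input 1), 400 (input 3), 510 (polysome 1) and 428 CPM (polysome 3). Although the groups did not overlap, polysome 3 exceeded input 1 by less than the 95% Poisson interval of either, 420 to 437 CPM and 413 to 438 CPM. The log2 fold change of endos was 0.18 ± 0.39, and with unstranded counts, which drop reads from the 192 exon bases it shares with CG6650, the groups overlapped. Per length, endos exceeded gwl 23.0-fold and 12.4-fold in input 1 and 3, 22.7-fold in polysome 1 and 4.44-fold in polysome 3.

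mtrm (FBgn0010431) is a gene of 1 exon on chromosome 3L from 8413012 to 8414103, within the span of Exo70 but sharing no exon base with it. Its reads numbered 36 (input 1), 8 (input 3), 44 (polysome 1) and 5292 (polysome 3), or 3.50, 0.735, 2.08 and 218 CPM. The fold between the polysome libraries, 105 in CPM, was the widest of the 10. Per length, mtrm ranked 9th or 10th of the 10 in both inputs and in polysome 1 and 2nd in polysome 3, after endos. The ratio of mtrm to polo, the kinase it binds, in TPM was 0.0403 and 0.00799 in inputs 1 and 3, and 0.0251 and 2.08 in polysomes 1 and 3. polo itself was at 237 and 251 CPM across inputs 1 and 3 and, across polysomes 1 and 3, at 226 and 285 CPM, so the ratio moved with mtrm. The log2 fold change of mtrm was 5.70 ± 1.80, with an unadjusted p of 0.0132.

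Translational efficiency is the log2 ratio of polysome to input TPM within a replicate, here with 1 TPM added to both, and is given as a description with no test. In replicate 1 it was above 0 for 4 of the 10 genes, and for 6087 of the 8959 tested genes with a length. Its median was -0.14, against 0.32 over all tested genes. In replicate 3 it was above 0 for 9 of the 10, and for 4768 of the 8959. The median there was 2.62, against 0.086 over all tested genes. The median of the 10 thus lay below that of all genes in replicate 1 and above it in replicate 3. gnu went from -1.25 to 3.36 and mtrm from -0.35 to 7.45. For png the values were -0.62 and 2.49, for wisp -0.23 and 3.02, and for twe -0.39 and 2.75. Those of cort were -0.04 and 1.76. grau, at 0.52 and -0.21, was the gene below 0 in replicate 3. plu and gwl were above the median of all genes in both replicates, at 1.60 and 5.04 for plu and at 0.58 and 1.75 for gwl. The value of plu in replicate 1 rests on 2 counts in input and 24 in polysome. endos was also above it in both, at 0.58 and 0.30. Averaged over replicates, the values closest together were those of endos, at 0.44 ± 0.14 (SE, n = 2), and the farthest apart those of mtrm, at 3.55 ± 3.90.

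**Figure D2:**
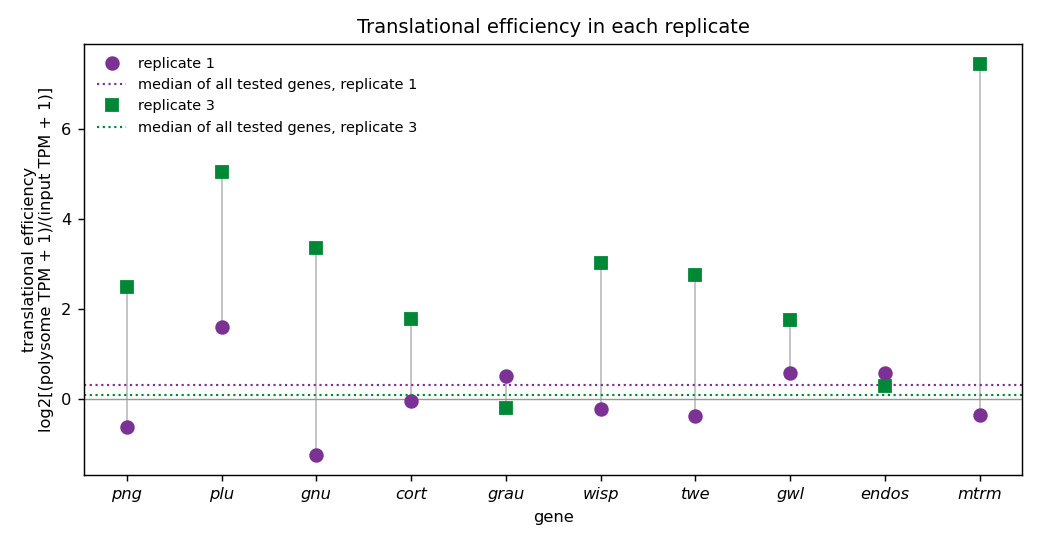
Translational efficiency of the 10 genes in replicate 1 (circles) and replicate 3 (squares), on the log2 scale, with dotted lines at the median of all tested genes in each replicate. The grey lines join the replicates of a gene and are longest for mtrm, from -0.35 to 7.45, and gnu, from -1.25 to 3.36.

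Leaving out 1 polysome library at a time gave different pictures. In these fits the lone polysome library is assumed to vary as the inputs do. Without polysome 1, 6 of the 10 genes passed the edgeR test, all higher in polysomes, where 7.24% of tested genes were called and 3.44% were called higher. They were mtrm (log2 fold change 6.74, adjusted p = 5.42e-28), plu (6.06, 1.92e-10), wisp (3.17, 1.48e-08), gnu (2.82, 8.75e-06), twe (2.63, 0.000399) and gwl (1.99, 0.00202). png, at 1.23 ± 1.22, and cort, at 1.35 ± 0.94, did not pass, and endos was at 0.11 ± 0.49. Without polysome 3, 0 of the 10 passed (0.549% of tested genes were called, 0.0207% higher), 3 had a fold change above 0 and the median was -0.12. There gnu was at -1.30 ± 0.84, wisp at -0.80 ± 0.64, twe at -0.66 ± 0.92 and mtrm at -0.05 ± 3.61. With no count filter mtrm, wisp and plu passed the edgeR test over all 4 libraries, where 0.952% of tested genes were called and 0.723% were called higher. Without input 1, where 0.0816% of tested genes were called, all higher, 0 of the 10 passed.

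**Figure D3:**
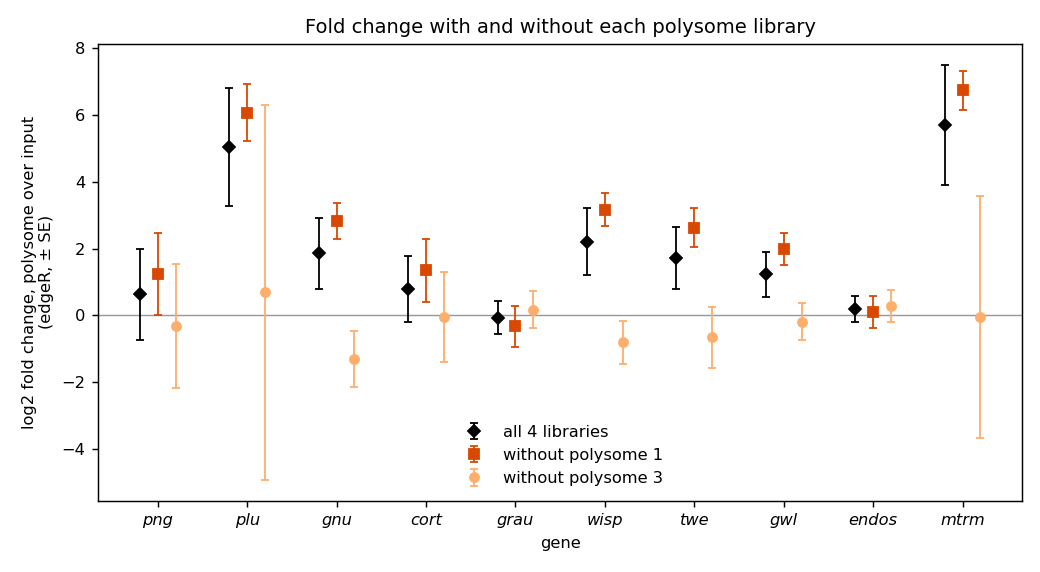
Log2 fold change of polysome over input by edgeR for the 10 genes, with the SE as bars, in all 4 libraries (diamonds), without polysome 1 (squares) and without polysome 3 (circles). Without polysome 1 the values of mtrm, plu, wisp, gnu, twe and gwl lie between 1.99 and 6.74, and without polysome 3 only plu, grau and endos lie above 0.

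The pathways around the 10 genes were described with 4 gene lists. None of their members passed the test over all 4 libraries. Of 13 tested genes of the APC/C and its activators, 11 were higher and 2 lower in polysomes, against 49.8% of all tested genes higher, with a median log2 fold change of 0.32. Without polysome 1 the log2 fold changes of APC7 and Rca1 were 3.97 and 1.67. Without polysome 3 the number higher was 4 of 13, against 48.1% of all tested genes. APC7, a subunit gene, was at 14.2 (input 1), 5.51 (input 3), 10.7 (polysome 1) and 149 CPM (polysome 3) (3.02 ± 1.10). The Cdc20 gene fzy, the mitotic counterpart of cort, was at 80.7 and 54.9 CPM across inputs 1 and 3 and, across polysomes 1 and 3, at 62.5 and 89.2 CPM (0.16 ± 0.44). Per length, fzy exceeded cort in all 4 libraries, with a ratio of cort to fzy of 0.119 to 0.247. Cdc27 was the lowest of the list, at -0.05 ± 0.38.

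Of the 13 M-phase kinase, cyclin and phosphatase genes, 10 were higher and 3 lower, against 49.8% of all tested genes higher, with a median of 0.067. Without polysome 1 all but 2 were higher, against 47.3% of all tested genes. There CycB was at 3.68, CycB3 at 2.84, Mos at 2.50, stg at 2.26 and CycA at 2.21. Without polysome 3 the number higher was 1 of 13, against 48.1%. CycB, one of the mRNAs released by Pan Gu, had the highest fold change of this list. It was at 121 (input 1), 74.9 (input 3), 95.8 (polysome 1) and 1209 CPM (polysome 3) (2.73 ± 0.98). CycB3 (1.95 ± 0.82) and Mos (1.63 ± 0.93) were likewise highest in polysome 3. tws, whose protein directs PP2A to the sites protected by Endos, was at 253 and 378 CPM across inputs 1 and 3 and, across polysomes 1 and 3, at 211 and 442 CPM (0.05 ± 0.48). The regulatory subunit gene wdb was the lowest, at -0.71 ± 0.46.

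Of 11 tested calcium and calcineurin genes, which carry the activation signal, 2 were higher and 9 lower in polysomes and the median was -0.36. The number higher was 5 of 11 without polysome 1, against 47.3% of all tested genes. Without polysome 3 the number was 1 of 11, against 48.1%. Both polysomes lay below both inputs for 2 of the 11, against 18.1% of all tested genes. sra, a calcineurin regulator needed for egg activation, was at 90.9 (input 1), 170 (input 3), 128 (polysome 1) and 76.1 CPM (polysome 3) (-0.36 ± 0.46). The extremes of this list were CanB at 1.35 ± 2.96, with 0 counts in input 1, and sgg at -0.86 ± 0.50.

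In the list of maternal mRNA translation and poly(A) control 9 of 16 tested genes were higher and 7 lower, with a median of 0.062. smg, a repressor that Pan Gu releases, was at 43.4 (input 1), 79.0 (input 3), 35.4 (polysome 1) and 686 CPM (polysome 3) (2.56 ± 1.09), the highest fold change of the list. pum, a repressor of CycB, was at 181 and 319 CPM across inputs 1 and 3 and, across polysomes 1 and 3, at 68.6 and 227 CPM (-0.76 ± 0.60). The lowest was Gld2, given above with its bound. Without polysome 1, 9 of the 16 were higher, against 47.3% of all tested genes. In that fit smg was at 3.54, me31B at 2.57, tral at 2.02, orb at 1.60 and bru1 at 1.52. cup, BicC and lmgA were listed at 0 in every library, and 94.8% to 100% of their exon bases are shared with another gene on the same strand, so that reads there name no single gene. In the order given, the medians of these 4 lists were 0.63, 0.67, -0.25 and 0.26 without polysome 1 and -0.06, -0.43, -0.51 and -0.71 without polysome 3, so that 3 of the 4 turned sign.

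Marker genes of other cells also differed between the same libraries. All 16 eggshell and yolk genes, which follicle cells make late in oogenesis, had counts in every library. Some counts were very low, at 1 for Cp7Fa in input 1 and, in input 3, 5 for Cp16 and 6 for Cp19. In 12 of the 16 the highest level was that of polysome 3, against 29.7% of all tested genes. The rest were lower in polysome 3 than in polysome 1. Both polysome libraries lay above both inputs for 12 of the 16, against 17.2% of tested genes. The summed level of the 16 lay at 5652 to 5882 CPM for input, 9161 CPM for polysome 1 and 16516 CPM for polysome 3. The chorion gene Cp15 went from 0.709 CPM in polysome 1, below both inputs, to 2615 CPM in polysome 3. All 8 mRNAs of later oocytes and nurse cells were highest in polysome 3, against 29.7% of all tested genes. Their sum was 148 to 187 CPM for input, 185 CPM for polysome 1 and 1493 CPM for polysome 3. Both polysome libraries lay above both inputs for 4 of the 8, against 17.2% of tested genes. The lowest of them in polysome 1, osk, was at 13.0 (input 1), 6.16 (input 3), 3.88 (polysome 1) and 396 CPM (polysome 3). By contrast, grk was at 14.1 (input 1), 11.3 (input 3), 13.4 (polysome 1) and 17.6 CPM (polysome 3). The 10 muscle sheath genes summed to 22686 to 29838 CPM for input, 25243 CPM for polysome 1 and 7067 CPM for polysome 3. The 10 germline and cyst markers summed to 1133 to 1552 CPM, and in polysome 3 the levels of vas, nanos, orb and aub were the highest of the 4 libraries and those of bam, bgcn, c(3)G and ord the lowest. No defining marker of these lists was at 0 in any library. The part of these markers in the levels of the 10 genes was not tested.

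**Figure D4:**
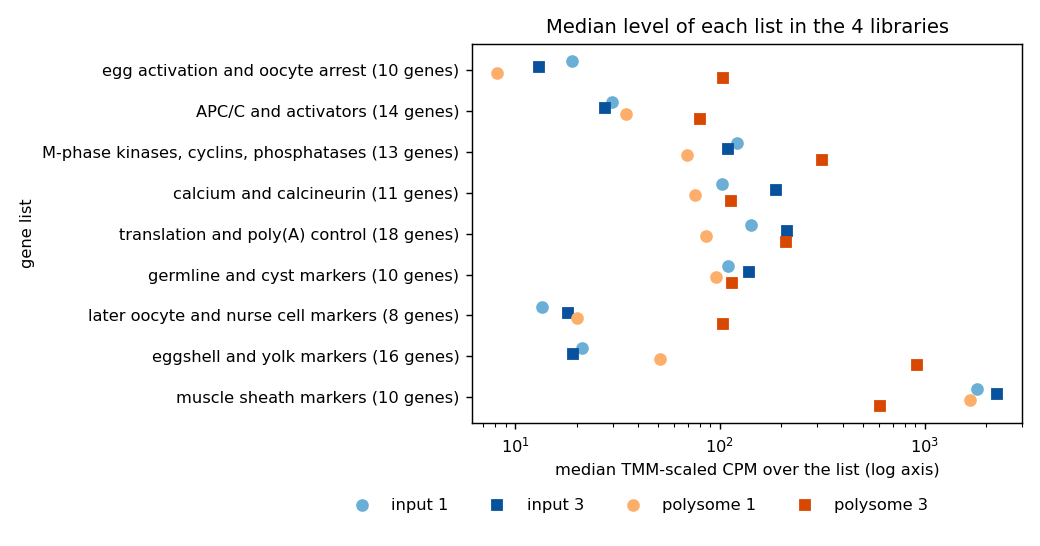
Median level of each gene list in the 4 libraries, in TMM-scaled CPM on a log axis, for the 10 genes, the 4 pathway lists and the marker lists with tested members. The medians of the 10 genes and of the later oocyte and nurse cell markers both lie near 104 CPM in polysome 3 and at or below 20.1 CPM in the other libraries, while the muscle sheath median is 605 CPM in polysome 3.

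The genes with the profile closest to each of the 10 were found by the distance between log2(CPM + 1) values over the 4 libraries, each profile centred on its mean. With 4 points this is a description only. For mtrm they were Femcoat, CG14309 and Jon65Aiii, at distances of 0.37, 0.92 and 1.05, and Femcoat was at 2.53 (input 1), 0 (input 3), 0.756 (polysome 1) and 141 CPM (polysome 3). For plu they were CG9265 (0.32), CG8180 (0.46) and yl, the yolk receptor gene (0.68). The closest to png was Alg9 (0.087), to gnu CG17490 (0.34), to cort Rbbp5 (0.087) and to gwl CG31612 (0.13). The closest to twe was me31B, an RNA helicase gene of repressed mRNAs, at 0.084, and the closest to wisp was Tsp66E, at 0.14. For endos and grau the nearest, frj (0.041) and atms (0.051), were likewise level across the libraries. None of the 3 nearest genes of any of the 10 belonged to the 10.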

How the data were processed

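Polysome-seq libraries of input (replicates 1 and 3) and polysome (replicates 1 and 3) were grouped by the labels. Per the submitters' processing notes reads were mapped to dm6 with STAR 2.6.1c, and the authors deposited its counts: whole-number reads per gene, not normalized, unstranded and for each strand. Column 4, the strand of a directional kit, held 95.3% to 97.1% of strand-assigned counts and was used. Rows naming no gene (10.8% to 42.6% of reads) were left out. Names, exon lengths and coordinates came from the BDGP6.54 annotation, release 115, on the dm6 assembly, which held 17561 of 17699 identifiers. The other 138 have no TPM.

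Genes kept by filterByExpr were tested with edgeR 4.0.16 (R 4.3.3): quasi-likelihood test, TMM factors, fraction as the only term, Benjamini-Hochberg adjustment over all genes, called under 0.05. The SE was computed from the test statistic. The test was tried on simulated counts first. Their scatter was fixed and not estimated from these libraries, so that trial does not measure the power of the test here. Translational efficiency followed the study in taking a log2 TPM ratio. A pseudocount of 1 TPM was chosen here. Since the study takes polysome over corresponding input, libraries of equal number were taken to share a lysate. The deviations of input and polysome from their group means correlated across 9038 genes at -0.068, which gives the pairing no support.

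Other settings were a replicate block, each library left out, unstranded counts, DESeq2 1.42.0, factors by upper quartile or RLE, all genes with counts or only those with at least 50 counts in 2 libraries, and for efficiency other pseudocounts and TMM-scaled CPM. The 10 genes and all lists were chosen with earlier results of these data known. Planned to be named were the 10, their 3 nearest profiles, the highest and lowest fold change of each pathway list, and fzy, polo, CycB, sra, smg and pum. All 3 nearest profiles were given only for mtrm and plu, and the closest 1 for each of the others. stg, tws, CycA, CycB3, Mos, Rca1, Cp15, Cp7Fa, Cp16, Cp19, osk, grk and the germline markers were named after their values were seen. The same holds for me31B, tral, orb and bru1 in the fit without polysome 1. Symbols lmg, mos, nos and dec-1 were read as lmgA, Mos, nanos and dec. The labels do not say whether the replicates came from separate flies. The p-values reflect the scatter of these 4 libraries alone, and it may be technical. Intervals cover counting error only.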

Additional observations from a re-analysis of the deposited data

Results flagged for a closer look

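Reads on the strand opposite to the counted one entered only the unstranded comparisons. They exceeded the 3 counts that a count of 0 allows at 3 of the genes with no annotated gene on that strand. At plu 39 such reads were seen in input 1, against 2 on its own strand, and 4, 0 and 0 in input 3, polysome 1 and polysome 3. At wisp there were 11 in input 3, 2.68% of strand-assigned reads there, and at gwl 14 in input 3, or 2.10%. At gwl the 2 polysome libraries had 0 and 3.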

How the results depend on the processing

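Over all genes the test called 0 as reported, 41 with DESeq2, 104 with no count filter, 47 with the replicate block and 0 to 695 with 1 library left out. Of the 10 genes it called 0, or 3 with no filter and 0 to 6 with 1 library left out; the 6 were without polysome 1. The replicate block changed no call on them, with a median log2 fold change of 0.88 against 1.48. The number with a fold change above 0 was 9, and 3 to 9 with 1 library left out. Fold changes changed direction only in fits without 1 library, where they ranged from -0.31 to 2.11 for png, -1.30 to 2.82 for gnu, -0.039 to 1.35 for cort, -0.33 to 0.17 for grau, -0.80 to 3.17 for wisp, -0.66 to 2.63 for twe, -0.049 to 7.21 for mtrm and -0.19 to 1.99 for gwl. Those of plu kept their direction, at 0.69 to 6.85. For png the direction changed without input 3 (-0.09) and without polysome 3. For gnu, cort, grau, wisp, twe, mtrm and gwl the direction changed only without polysome 3. The cause was not tested. At 50 counts in 2 libraries plu and mtrm were no longer tested and the median of the other 8 was 1.01. The median efficiency was 1.11 over both replicates, 2.62 without replicate 1 and -0.14 without replicate 3, the last pair added after seeing the data. Unstranded, the mean input level of plu went from 1.75 to 7.19 TPM and that of endos from 381 to 349 TPM. Of the 10, 1 had both polysomes on one side of both inputs, against 35.3% of all tested genes. The number was 0 unstranded and 2 by library totals, also added later. For these settings the share over all genes was not computed. Counts of 2 to 44 limit plu and mtrm outside polysome 3.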
